A study of Mus musculus with 24 samples.

Results

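The genes of cholesterol synthesis, uptake and efflux were followed across 24 mouse liver expression arrays. The list held 30 genes, taken by gene symbol. Of these, 29 had a probe set of their own and are described here, out of 21143 genes tested. The exception was Tm7sf2, a sterol reductase whose probe set also carries the symbol Vps51 and was therefore not used. Each of the 29 genes was read by 1 probe set. Probe sets differ in brightness, so levels are compared between groups and never between genes.

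The arrays came from male mice, 8 to 10 weeks old at inclusion per the labels, that carried no N-RAS (N-RAS-/-) or were wild type (N-RAS+/+). N-RAS is a small GTPase of the RAS family, and the N-RAS-/- mice lacked it in all cells, on the C57BL/6J background that the wild types shared. In the CCl4 experiment, N-RAS-/- and N-RAS+/+ mice received carbon tetrachloride (CCl4), a hepatotoxin, or its vehicle corn oil by injection for 4 weeks. In the BDL experiment, mice of both genotypes underwent ligation of the common bile duct (BDL), which holds bile back in the liver, or a sham operation, and livers were taken on day 28. The 8 groups were thus N-RAS-/- CCl4, N-RAS+/+ CCl4, N-RAS-/- oil, N-RAS+/+ oil, N-RAS-/- BDL, N-RAS+/+ BDL, N-RAS-/- sham and N-RAS+/+ sham, with 3 arrays each. The labels tell no more of how the livers of a group were drawn, so p-values measure the spread between these arrays.

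Liver cells make cholesterol from acetyl-CoA through mevalonate, isoprenoid units, squalene and a series of sterol ring steps. When membrane sterol is low, Scap escorts the transcription factor precursor encoded by Srebf2 to the Golgi, where it is cut and released to switch on the enzymes of the pathway, and Insig1 and Insig2 hold it back when sterol is plentiful. Cholesterol also enters hepatocytes from HDL through Scarb1, is moved between membranes by Stard4, is stored as esters by Soat2, and leaves to HDL particles through Abca1 and Abcg1 or to bile through the Abcg5 and Abcg8 pair. Lcat esterifies cholesterol on HDL in plasma.

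Promoter windows are shown for 3 synthesis genes with large falls after CCl4, for a pair that differed in opposite directions between genotypes after CCl4, and for the biliary transporter gene that fell after BDL. Each runs 5′ to 3′ on the gene's own strand, from 250 bases before the start of the transcript to 50 bases from it, as given by RefSeq on GRCm38.p6. Of the 30 genes, 23 had at least 1 such window, and some had several, for different starts. Capitals mark CCAAT on either strand, and in the Hmgcs1 window also the sterol-element-type motif TCACNCCAC.

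Hmgcs1, HMG-CoA synthase, at chr13:119690101-119690400, plus strand:
Hmgcs1: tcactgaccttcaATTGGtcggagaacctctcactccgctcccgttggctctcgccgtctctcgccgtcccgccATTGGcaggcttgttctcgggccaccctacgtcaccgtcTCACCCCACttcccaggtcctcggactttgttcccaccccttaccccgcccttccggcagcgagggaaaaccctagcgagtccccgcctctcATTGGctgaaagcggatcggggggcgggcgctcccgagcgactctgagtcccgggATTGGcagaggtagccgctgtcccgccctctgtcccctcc
Idi1, isopentenyl diphosphate isomerase, at chr13:8885356-8885655, plus strand:
Idi1: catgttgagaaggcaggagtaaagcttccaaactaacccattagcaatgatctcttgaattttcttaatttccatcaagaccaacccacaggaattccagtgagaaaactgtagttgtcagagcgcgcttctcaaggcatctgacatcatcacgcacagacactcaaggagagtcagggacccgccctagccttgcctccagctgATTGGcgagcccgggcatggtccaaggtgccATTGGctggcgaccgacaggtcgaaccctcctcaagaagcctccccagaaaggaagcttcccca
Nsdhl, a sterol dehydrogenase, at chrX:72918271-72918570, plus strand:
Nsdhl: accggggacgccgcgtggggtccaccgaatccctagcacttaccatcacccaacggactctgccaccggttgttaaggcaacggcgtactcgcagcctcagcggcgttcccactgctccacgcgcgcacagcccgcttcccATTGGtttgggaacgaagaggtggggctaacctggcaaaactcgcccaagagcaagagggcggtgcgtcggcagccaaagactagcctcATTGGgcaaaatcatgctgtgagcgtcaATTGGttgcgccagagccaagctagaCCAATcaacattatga
Acat2, cytosolic acetoacetyl-CoA thiolase, at chr17:12960676-12960975, minus strand:
Acat2: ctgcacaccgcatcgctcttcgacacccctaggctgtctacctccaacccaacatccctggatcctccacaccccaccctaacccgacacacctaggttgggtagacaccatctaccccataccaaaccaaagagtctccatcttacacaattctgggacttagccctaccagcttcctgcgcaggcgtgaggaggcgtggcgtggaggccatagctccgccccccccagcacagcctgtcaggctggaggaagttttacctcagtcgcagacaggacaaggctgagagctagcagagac
Hsd17b7, a sterol ketone reductase, at chr1:169969156-169969455, minus strand:
Hsd17b7: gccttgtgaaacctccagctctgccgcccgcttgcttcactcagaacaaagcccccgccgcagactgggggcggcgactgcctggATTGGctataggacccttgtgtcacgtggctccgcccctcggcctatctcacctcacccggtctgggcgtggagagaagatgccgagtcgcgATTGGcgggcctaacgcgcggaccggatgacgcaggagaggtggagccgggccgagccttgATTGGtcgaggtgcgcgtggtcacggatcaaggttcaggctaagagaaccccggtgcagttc
Abcg8, a subunit of the biliary sterol exporter, at chr17:84682871-84683170, plus strand:
Abcg8: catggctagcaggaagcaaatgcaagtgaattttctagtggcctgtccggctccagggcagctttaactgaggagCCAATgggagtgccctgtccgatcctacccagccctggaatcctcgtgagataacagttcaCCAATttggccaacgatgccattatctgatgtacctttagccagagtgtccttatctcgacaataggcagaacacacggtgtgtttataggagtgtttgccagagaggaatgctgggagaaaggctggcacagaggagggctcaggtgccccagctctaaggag

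CCAAT lay in at least 1 window of 20 of the 23 genes (87%), against 41.1% of 27025 mouse genes. The windows of Hmgcs1 and Nsdhl held it 4 times each, that of Hsd17b7 held it 3 times and that of Acat2 held none. TCACNCCAC, searched on both strands, was found for 1 of the 23 genes (4.35%), in the window of Hmgcs1 at positions -137 to -129 from the start, against 1.44% of genes. The match of TCACNCCAC overlapped no CCAAT. These are matches of letters only. Abcg8 and its partner Abcg5 start 109 bases apart and point away from each other, so that their windows overlap by 209 bases.

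Several arrays departed from their labels or from their group. Nras signal was 4.55 to 5.55 on N-RAS-/- arrays and 5.92 to 8.04 on N-RAS+/+ arrays (log2 signal), with no overlap. All mice are labelled male, but 6 arrays had a mean of 3.0 to 3.59 over 4 Y-linked genes, against 6.84 to 8.25 on the other 18. They were all 3 N-RAS-/- sham arrays, N-RAS+/+ sham arrays N01 and N03 and N-RAS-/- oil array N28. On N-RAS-/- BDL array N12 the mean of 5 skeletal muscle genes was 8.21, against at most 4.26 elsewhere. The clock gene Dbp stood at 11.95 to 12.40 on the 5 low-Y sham arrays, at 7.35 on sham array N02, at 8.81 to 11.08 on BDL arrays and at 6.69 to 8.56 in the CCl4 experiment. Within the CCl4 experiment Dbp was 7.03 to 7.59 on N-RAS-/- CCl4 arrays and 7.94 to 8.20 on N-RAS+/+ CCl4 arrays. Over 10 clock genes the mean was 6.48 to 6.75 on N-RAS-/- CCl4 arrays and 6.90 to 7.12 on N-RAS+/+ CCl4 arrays, with no overlap in either. On N-RAS+/+ oil arrays the 10-gene mean was 6.75 to 6.88, below all N-RAS+/+ CCl4 arrays. On N-RAS-/- oil arrays it was 6.34 to 7.21, which overlaps the N-RAS-/- CCl4 arrays. There Per1 was higher after CCl4 (8.58 to 9.30, against 7.28 to 8.12) and Tef was lower (5.13 to 5.40, against 5.48 to 6.20). Comparisons with the sham groups, between genotypes after CCl4 and of CCl4 over oil therefore carry such differences along. Their part in the results was not tested.

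Fewer cells of a type and less RNA per cell cannot be told apart in whole liver. The hepatocyte markers Alb, Ttr, Apoa1, Serpina1a and Hnf4a averaged 12.18 to 12.76 on every array, near the top of the signal range of 2.01 to 13.62.

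After 4 weeks of CCl4 the enzymes of cholesterol synthesis were lower in both genotypes, all 17 of 17 measured. Their mean log2 signal was 7.72 to 7.93 on N-RAS-/- CCl4 arrays and 9.71 to 9.87 on N-RAS-/- oil arrays. It was 7.85 to 8.06 on N-RAS+/+ CCl4 arrays and 9.66 to 9.92 on N-RAS+/+ oil arrays. Every CCl4 array thus lay below every oil array. Over all 29 genes, CCl4 over oil was lower for 21 and higher for 0 in N-RAS-/- livers, where 9.19% of all genes were called lower and 13.6% higher. In N-RAS+/+ livers 20 were lower and 0 higher, where 7.16% of all genes were called lower and 8.08% higher. Calls here and below are limma tests at an adjusted p (Benjamini-Hochberg over 21143 genes) under 0.05. At an unadjusted p under 0.05, 24 genes were lower and 0 higher in each genotype. The shares of all genes, here and below, are for adjusted calls. Counts at an unadjusted p have no such share beside them, so they do not tell whether the list differed from all genes. The median log2 difference of the 29 genes was -1.43 in N-RAS-/- livers, against -0.02 over all genes, and -1.34 in N-RAS+/+ livers, against 0.01.

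**Figure D1:**
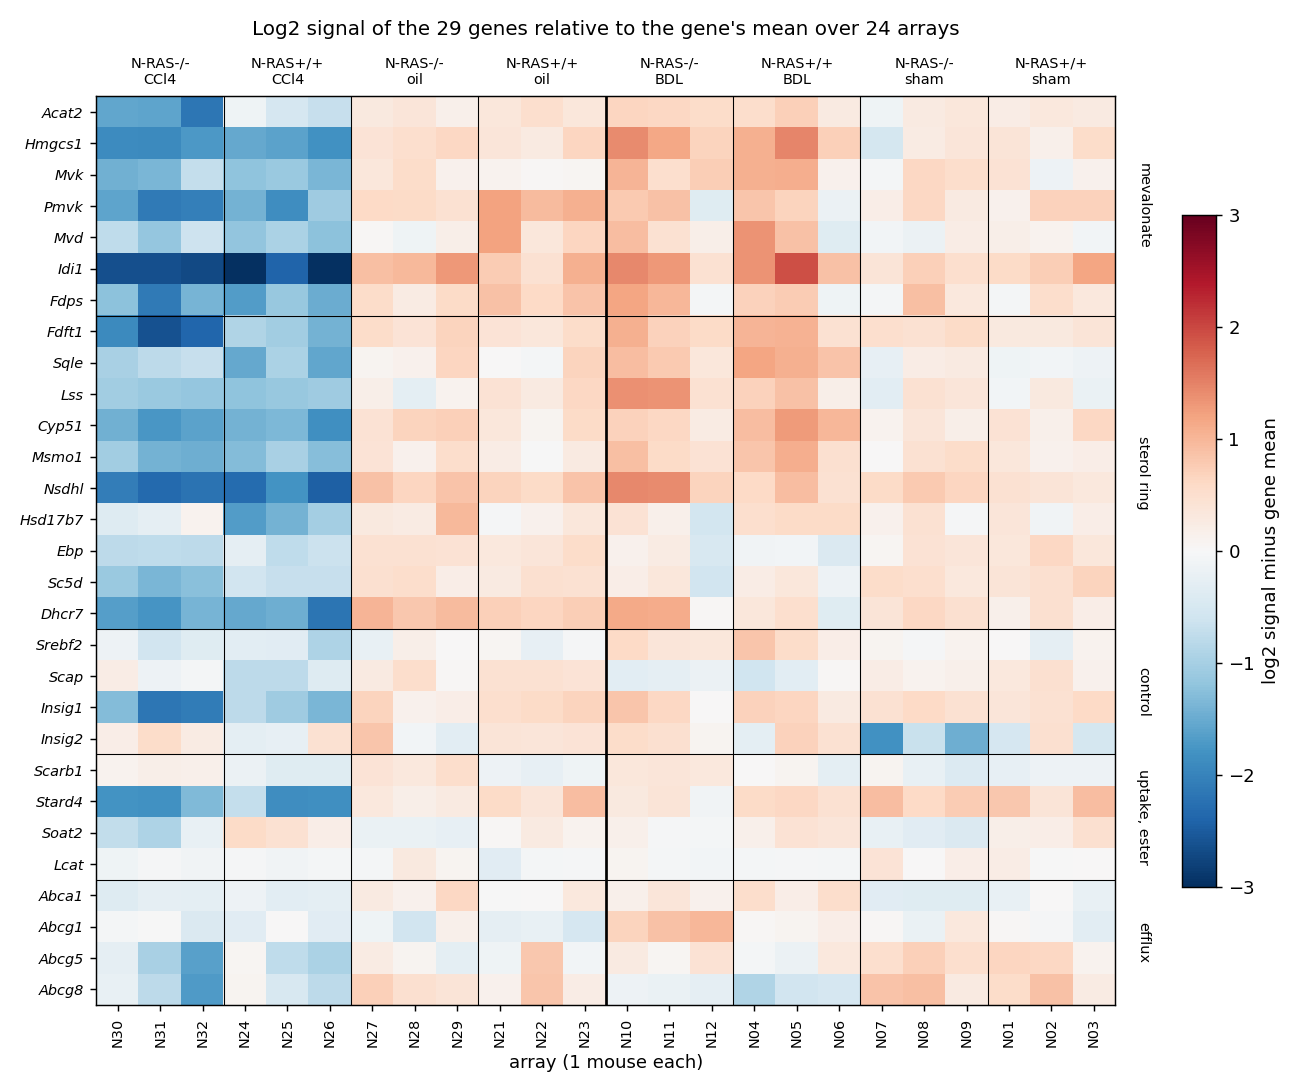
Log2 signal of the 29 genes on each of the 24 arrays, shown as the difference from that gene's mean over all arrays (colour scale in log2 units), with rows ordered by role and columns by group. The synthesis enzymes are below their means on all 6 CCl4 arrays, except Hsd17b7 on N-RAS-/- array N32, and the 6 arrays have averages over the 17 enzymes of 7.72 to 8.06, against 9.40 or more on the other 18 arrays.

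Idi1, which isomerizes the isoprenoid unit, showed the largest fall. Its log2 signal was 6.31, 6.32 and 6.25 on N-RAS-/- CCl4 arrays and 9.85, 9.93 and 10.26 on N-RAS-/- oil arrays. It was 5.58, 6.55 and 5.85 on N-RAS+/+ CCl4 arrays and 9.71, 9.40 and 10.01 on N-RAS+/+ oil arrays. The groups were several log2 units apart and did not overlap. The difference was -3.72 ± 0.22 (SE; 13.2-fold lower, adjusted p = 4.76e-08) in N-RAS-/- livers and -3.71 ± 0.22 (13.1-fold lower, adjusted p = 1.36e-07) in N-RAS+/+ livers by limma.

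Hmgcs1 makes HMG-CoA, from which mevalonate is formed. It stood at 9.11, 9.09 and 9.28 on N-RAS-/- CCl4 arrays against 11.41, 11.50 and 11.62 on N-RAS-/- oil arrays, a difference of -2.35. It stood at 9.47, 9.39 and 9.19 on N-RAS+/+ CCl4 arrays against 11.37, 11.26 and 11.65 on N-RAS+/+ oil arrays, a difference of -2.08. Both sets of CCl4 arrays were more than the whole spread of the oil arrays below them. Pmvk, phosphomevalonate kinase, had 6.86, 6.32 and 6.39 on N-RAS-/- CCl4 arrays and 9.04, 9.02 and 8.89 on N-RAS-/- oil arrays. It had 7.03, 6.57 and 7.38 on N-RAS+/+ CCl4 arrays and 9.64, 9.38 and 9.51 on N-RAS+/+ oil arrays. Its fall was 5.49-fold in N-RAS-/- livers and 5.72-fold in N-RAS+/+ livers, with no overlap. Fdps, farnesyl diphosphate synthase, had 7.52, 6.63 and 7.36 on N-RAS-/- CCl4 arrays and 9.30, 9.0 and 9.33 on N-RAS-/- oil arrays. It had 7.08, 7.61 and 7.27 on N-RAS+/+ CCl4 arrays and 9.64, 9.35 and 9.60 on N-RAS+/+ oil arrays, and fell 4.11-fold in N-RAS-/- livers and 4.63-fold in N-RAS+/+ livers. The remaining genes of this stretch, Mvk (mevalonate kinase), Mvd (its decarboxylase) and Acat2, were also called lower in both genotypes, Mvk by -1.52 in N-RAS-/- livers and -1.30 in N-RAS+/+ livers and Mvd by -0.87 in N-RAS-/- livers and -1.86 in N-RAS+/+ livers. With Idi1, Hmgcs1, Pmvk and Fdps, all 7 of 7 genes up to farnesyl diphosphate were lower.

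The sterol ring steps, from squalene onwards, were lower for 10 of 10 measured genes in each genotype. Nsdhl, which acts in removal of ring methyl groups, stood at 8.22, 7.95 and 8.09 on N-RAS-/- CCl4 arrays and 11.17, 10.94 and 11.14 on N-RAS-/- oil arrays. It stood at 7.99, 8.49 and 7.85 on N-RAS+/+ CCl4 arrays and 10.97, 10.87 and 11.15 on N-RAS+/+ oil arrays. The difference was -2.99 ± 0.17 (adjusted p = 3.27e-08) in N-RAS-/- livers and -2.89 ± 0.17 (adjusted p = 1.29e-07) in N-RAS+/+ livers by limma. Dhcr7, the last reductase before cholesterol, had 7.83, 7.71 and 8.09 on N-RAS-/- CCl4 arrays and 10.50, 10.29 and 10.42 on N-RAS-/- oil arrays. It had 7.95, 8.02 and 7.29 on N-RAS+/+ CCl4 arrays and 10.19, 10.13 and 10.21 on N-RAS+/+ oil arrays. It fell 5.75-fold in N-RAS-/- livers and 5.38-fold in N-RAS+/+ livers, and the groups lay far apart. Cyp51, lanosterol demethylase, had 8.19, 7.90 and 8.04 on N-RAS-/- CCl4 arrays and 10.07, 10.30 and 10.36 on N-RAS-/- oil arrays, with 8.22, 8.29 and 7.80 on N-RAS+/+ CCl4 arrays and 9.98, 9.73 and 10.21 on N-RAS+/+ oil arrays. Msmo1, a sterol methyl oxidase, had 7.43, 7.07 and 7.01 on N-RAS-/- CCl4 arrays and 8.88, 8.61 and 9.01 on N-RAS-/- oil arrays, with 7.18, 7.51 and 7.20 on N-RAS+/+ CCl4 arrays and 8.70, 8.47 and 8.74 on N-RAS+/+ oil arrays. Neither gene overlapped between CCl4 and oil in either genotype, and both were called, Cyp51 at -2.20 in N-RAS-/- livers and -1.87 in N-RAS+/+ livers, and Msmo1 at -1.67 in N-RAS-/- livers and -1.34 in N-RAS+/+ livers. Sqle (squalene epoxidase), Lss (lanosterol synthase), Ebp (sterol isomerase), Sc5d (sterol desaturase), Fdft1 (squalene synthase) and Hsd17b7 completed the 10. The smallest fall among the 17 enzymes was that of Hsd17b7 in N-RAS-/- livers, -0.69 ± 0.22 (adjusted p = 0.0337, limma), and this call was lost in 3 of the 6 fits that left out 1 array, with adjusted p up to 0.159.

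**Figure D2:**
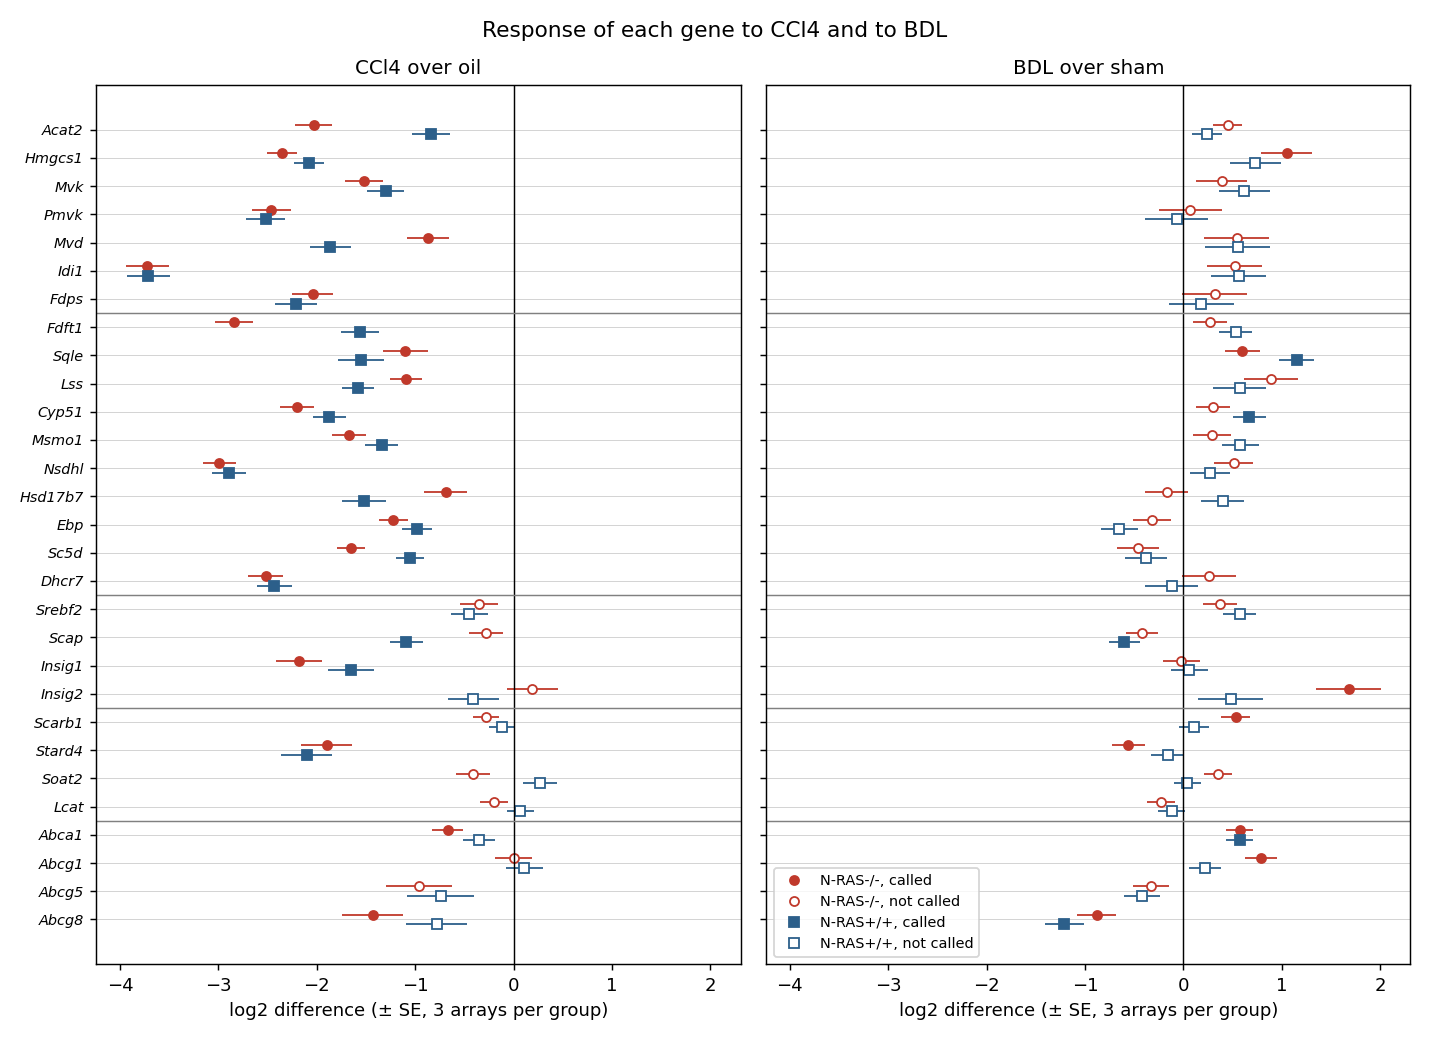
Log2 difference between treated and control livers for each of the 29 genes, CCl4 over oil and BDL over sham. N-RAS-/- is in red and N-RAS+/+ in blue, with bars of ± SE from limma (3 arrays per group). After CCl4 the 17 synthesis enzymes lie between -3.72 and -0.69, while after BDL they lie between -0.65 and 1.15.

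Outside synthesis, fewer genes moved after CCl4. Insig1, itself a target of the factor encoded by Srebf2, was lower by -2.18 ± 0.23 (adjusted p = 7.82e-06) in N-RAS-/- livers and by -1.65 ± 0.23 (adjusted p = 0.0002) in N-RAS+/+ livers. Stard4, a carrier of cholesterol between membranes, was lower by -1.90 in N-RAS-/- livers and -2.10 in N-RAS+/+ livers. Scap was called lower in N-RAS+/+ livers (-1.09 ± 0.17, adjusted p = 0.000515), and its difference in N-RAS-/- livers was -0.28 ± 0.17 (adjusted p = 0.266). Abcg8 (-1.43 ± 0.31, adjusted p = 0.00376) and Abca1 (-0.67 ± 0.16, adjusted p = 0.00595) were called lower in N-RAS-/- livers and not called in N-RAS+/+ livers. All of these are limma tests. The N-RAS+/+ means were also lower after CCl4. They were 9.04 after CCl4 and 9.82 after oil for Abcg8, and 9.22 after CCl4 and 9.57 after oil for Abca1. In all, 19 genes were called in both genotypes and 7 in neither: Srebf2, Insig2, Scarb1, Lcat, Soat2, Abcg1 and Abcg5. The transcript of Srebf2 itself differed by -0.35 ± 0.19 in N-RAS-/- livers (adjusted p = 0.211) and by -0.45 ± 0.19 in N-RAS+/+ livers (adjusted p = 0.127). Lcat had the narrowest range of all members, 11.64 to 12.38 over 24 arrays.

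Hepatocyte markers were read beside these changes. Of the 5, Hnf4a was called lower in N-RAS-/- CCl4 livers (-0.62 ± 0.18, adjusted p = 0.019, limma), close in size to the smallest enzyme fall, with 2 lower at an unadjusted p under 0.05, and 0 were called in N-RAS+/+ CCl4 livers (0 also at an unadjusted p under 0.05). The mean of the 5 was 12.39 to 12.47 on N-RAS-/- CCl4 arrays and 12.46 to 12.76 on N-RAS-/- oil arrays. It was 12.41 to 12.53 on N-RAS+/+ CCl4 arrays and 12.18 to 12.64 on N-RAS+/+ oil arrays. Stellate cell and myofibroblast markers were higher after CCl4 for 4 of 5 in N-RAS-/- livers and 1 of 5 in N-RAS+/+ livers, with means of 7.04 to 7.49 on N-RAS-/- CCl4, 6.23 to 6.51 on N-RAS-/- oil, 6.34 to 6.97 on N-RAS+/+ CCl4 and 6.27 to 6.41 on N-RAS+/+ oil arrays. Macrophage markers were higher for 1 of 5 and lower for 1 in N-RAS-/- livers, and higher for 2 of 5 in N-RAS+/+ livers (by up to 1.69). Bile duct markers were higher for 1 of 5 in N-RAS-/- livers and 2 of 5 in N-RAS+/+ livers (by up to 2.35), and of 4 endothelial markers 0 were called in N-RAS-/- livers (1 higher at an unadjusted p under 0.05) and 1 was lower in N-RAS+/+ livers by limma. The part of a changed cell mixture in the fall of the cholesterol genes was not tested.

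A second lipid pathway and other cholesterol genes give the surroundings of this fall. Of 6 genes of fatty acid synthesis, 4 were lower after CCl4 in N-RAS-/- livers (Elovl6 -2.52, Fasn -1.64, Acly -1.12 and Acaca -0.62) and 5 in N-RAS+/+ livers (Fasn -2.62, Elovl6 -1.86, Acly -1.67, Acaca -1.61 and Me1 -1.54). Of 23 measured further genes of cholesterol handling, 3 were higher and 7 lower in N-RAS-/- livers, and 1 was higher and 4 lower in N-RAS+/+ livers. Soat1, the esterifying enzyme of macrophages and other tissues, was higher in both, by 0.64 in N-RAS-/- livers and 1.16 in N-RAS+/+ livers. Stard5, another sterol carrier, was lower in both, by -0.90 in N-RAS-/- livers and -1.04 in N-RAS+/+ livers.

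After BDL, 0 of the 17 enzymes were called lower in either genotype by limma (1 in each at an unadjusted p under 0.05), and those called were higher. In N-RAS-/- livers BDL over sham was higher for 6 of the 29 genes and lower for 2, where 7.18% of all genes were called higher and 4.05% lower. In N-RAS+/+ livers 3 were higher and 2 lower, where 4.51% of all genes were called higher and 2.7% lower. Before adjustment, 11 rose and 4 fell at p under 0.05 in N-RAS-/- livers, and 8 rose and 4 fell in N-RAS+/+ livers. The median of the 29 genes was 0.32 in N-RAS-/- livers, against -0.03 over all genes, and 0.24 in N-RAS+/+ livers, against -0.01. The mean of the 17 enzymes was 9.51 to 10.23 on N-RAS-/- BDL and 9.40 to 9.78 on N-RAS-/- sham arrays, and 9.57 to 10.20 on N-RAS+/+ BDL and 9.57 to 9.64 on N-RAS+/+ sham arrays. The lowest BDL values were those of N-RAS-/- array N12 (9.51), which also carried the muscle signal, and of N-RAS+/+ array N06 (9.57), and with these the BDL and sham ranges overlapped.

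**Figure D3:**
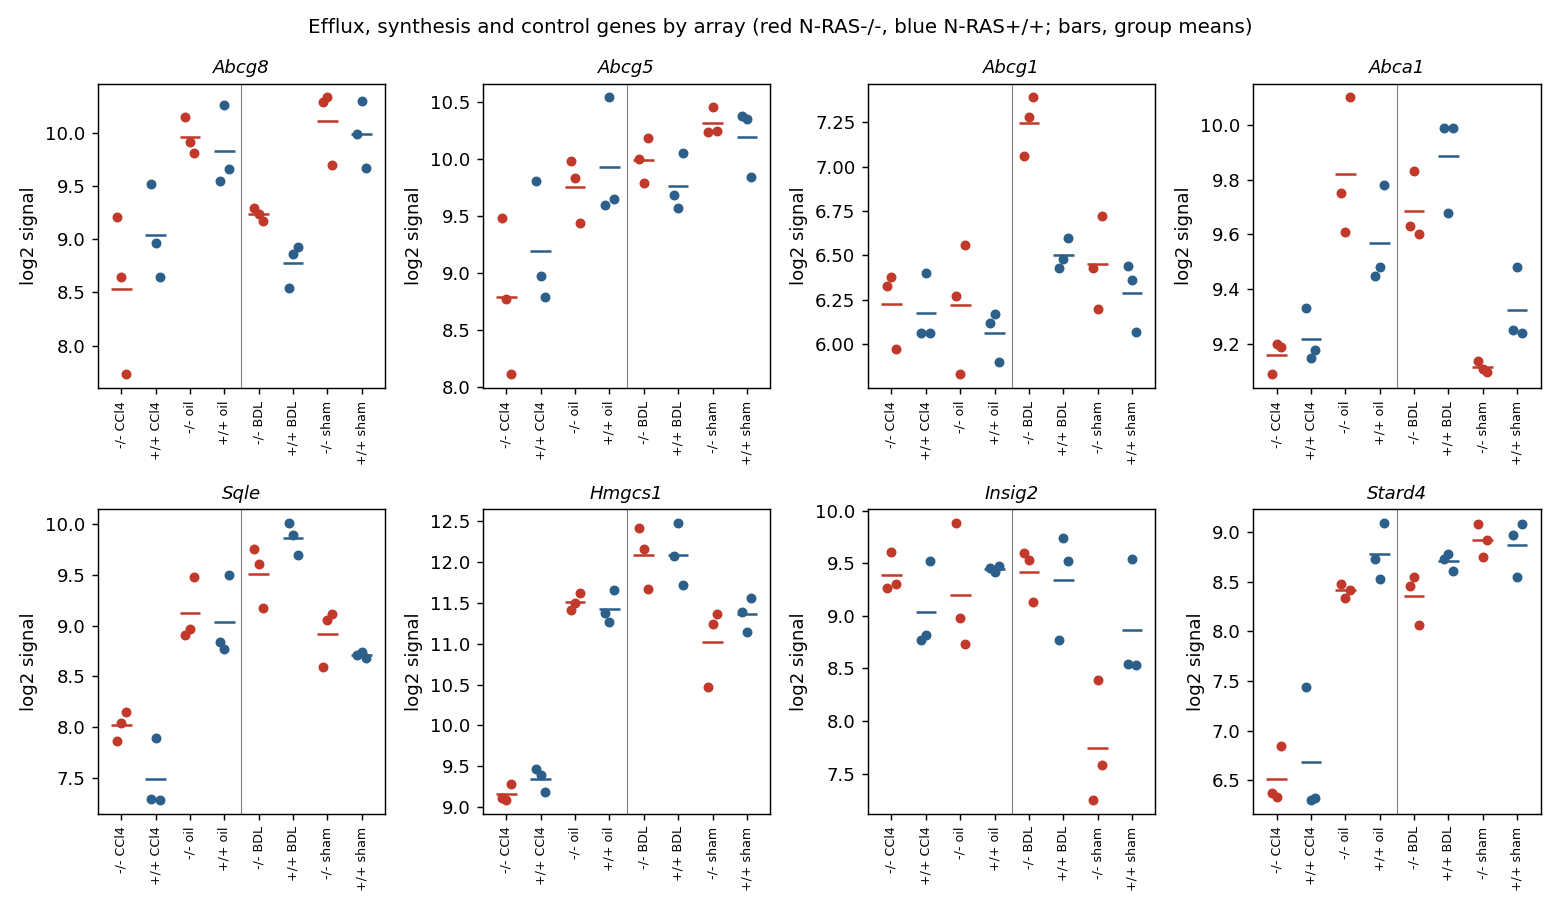
Log2 signal of 8 efflux, synthesis and control genes on every array (red, N-RAS-/-; blue, N-RAS+/+; bars, means of 3 arrays; the vertical line parts the CCl4 from the BDL experiment). Abcg8 is below sham on all 6 BDL arrays (8.54 to 9.29, against 9.67 to 10.33), and Insig2 is lowest on the N-RAS-/- sham arrays (7.25 to 8.39).

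Some of the genes called after BDL are given by array, singled out after their values were seen. Abcg8, which pumps cholesterol into bile, stood at 9.29, 9.24 and 9.17 on N-RAS-/- BDL arrays and 10.29, 10.33 and 9.70 on N-RAS-/- sham arrays. It stood at 8.54, 8.86 and 8.93 on N-RAS+/+ BDL arrays and 9.99, 10.30 and 9.67 on N-RAS+/+ sham arrays. It was the 1 gene called lower in both genotypes, by -0.88 ± 0.20 (adjusted p = 0.0097) in N-RAS-/- livers and -1.21 ± 0.20 (adjusted p = 0.00157) in N-RAS+/+ livers by limma. Without the low-Y arrays the N-RAS+/+ sham group is array N02 alone, against which the difference was -1.52, a value that rests on 1 array. No N-RAS-/- sham array is left without them. Its partner Abcg5 differed by -0.33 ± 0.18 (adjusted p = 0.305) in N-RAS-/- livers and by -0.42 ± 0.18 (adjusted p = 0.206) in N-RAS+/+ livers, neither called by limma.

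Sqle, squalene epoxidase, was higher after BDL in both genotypes. It had 9.76, 9.61 and 9.17 on N-RAS-/- BDL arrays and 8.59, 9.06 and 9.11 on N-RAS-/- sham arrays. It had 10.01, 9.89 and 9.70 on N-RAS+/+ BDL arrays and 8.71, 8.74 and 8.68 on N-RAS+/+ sham arrays. The groups did not overlap, although N-RAS-/- array N12 came within 0.1 log2 units of sham, and the rise was 0.60 ± 0.18 (adjusted p = 0.0457) in N-RAS-/- livers and 1.15 ± 0.18 (adjusted p = 0.00111) in N-RAS+/+ livers by limma. The N-RAS-/- call was kept in 1 of the 6 fits without 1 array. Abca1, which loads cholesterol on to HDL, had 9.63, 9.83 and 9.60 on N-RAS-/- BDL arrays and 9.14, 9.11 and 9.10 on N-RAS-/- sham arrays. It had 9.99, 9.68 and 9.99 on N-RAS+/+ BDL arrays and 9.25, 9.48 and 9.24 on N-RAS+/+ sham arrays. Its rise was 0.57 ± 0.14 in each genotype, with adjusted p = 0.014 in N-RAS-/- livers and adjusted p = 0.0207 in N-RAS+/+ livers by limma. The N-RAS+/+ call was kept in 2 of 6 fits without 1 array.

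Insig2, the hold-back protein known for a liver transcript that insulin lowers, had 9.60, 9.53 and 9.13 on N-RAS-/- BDL arrays and 7.25, 8.39 and 7.58 on N-RAS-/- sham arrays, a rise of 1.68 ± 0.33 (adjusted p = 0.00451, limma). It had 8.77, 9.74 and 9.52 on N-RAS+/+ BDL arrays and 8.54, 9.54 and 8.53 on N-RAS+/+ sham arrays, which overlap. The N-RAS-/- oil arrays of the CCl4 experiment stood at 9.88, 8.98 and 8.73, near BDL. On the 5 sham arrays with low Y-linked and high Dbp signal Insig2 was 7.25 to 8.54, and on sham array N02 it was 9.54. Abcg1, a second exporter to HDL, had 7.06, 7.28 and 7.39 on N-RAS-/- BDL arrays and 6.43, 6.20 and 6.72 on N-RAS-/- sham arrays, a rise of 0.79 ± 0.16 (adjusted p = 0.00508, limma). The 3 N-RAS-/- BDL arrays were the highest of all 24. The other calls were kept in at most 3 of the 6 fits that left out 1 array. In N-RAS-/- livers Hmgcs1 (1.05) was called in 3 of 6 such fits, Scarb1 (0.53) in 1 of 6 and Stard4 (-0.56) in 0 of 6, with adjusted p up to 0.0751, 0.138 and 0.18 by limma. In N-RAS+/+ livers Cyp51 (0.67) was called in 3 of 6 and Scap (-0.60) in 2 of 6, with adjusted p up to 0.0901 and 0.134.

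Several of these calls turn on the sham arrays. With the oil arrays of the same genotype in place of sham, 1 of the 8 calls in N-RAS-/- livers was kept, Abcg1 at 1.02 (adjusted p = 0.000399, limma). Insig2 was then 0.22 (adjusted p = 0.732), and Abca1 was -0.14 (adjusted p = 0.606) and Scarb1 -0.08 (adjusted p = 0.761), both turned in sign. In N-RAS+/+ livers 4 of the 5 calls were kept, and Abca1 was 0.32 (adjusted p = 0.18). The oil arrays belong to another experiment, so these values set experiments against each other as well. Bile duct markers were higher after BDL for 4 of 5 in N-RAS-/- livers and 5 of 5 in N-RAS+/+ livers, with means of 7.54 to 8.65 on N-RAS-/- BDL, 5.77 to 6.05 on N-RAS-/- sham, 7.55 to 8.52 on N-RAS+/+ BDL and 5.70 to 5.87 on N-RAS+/+ sham arrays. Macrophage markers were higher for 3 of 5 in N-RAS-/- livers and 2 of 5 in N-RAS+/+ livers, as were stellate cell markers, and 1 endothelial and 1 hepatocyte marker were lower in N-RAS+/+ livers. The stellate cell mean was 8.13 on N12, the array with the muscle signal, and 6.66 and 6.92 on the other N-RAS-/- BDL arrays. It was 6.04 to 6.23 on N-RAS-/- sham arrays and 6.59 to 6.91 on N-RAS+/+ BDL arrays. The part of these cell types in the results was not tested. Of the 23 further cholesterol genes, Soat1 was higher in both genotypes (0.90 in N-RAS-/- livers and 0.91 in N-RAS+/+ livers), Osbp was higher in N-RAS-/- livers, and Nr1h3 and Pltp were lower in N-RAS+/+ livers.

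The responses to CCl4 and BDL were then set against each other in 1 fit of all 24 arrays, a comparison chosen after the data had been seen. The response to CCl4 was lower than the response to BDL for 23 of the 29 genes in N-RAS-/- livers, where 4.75% of all genes were called lower and 4.4% higher. It was lower for 19 in N-RAS+/+ livers, where 1.56% of all genes were called lower and 1.4% higher. No gene of the list was called higher in either genotype by limma. Among the 17 enzymes 16 were called in N-RAS-/- livers, with Hsd17b7 as the exception, and 15 in N-RAS+/+ livers, with Sc5d and Ebp as the exceptions. Idi1 differed by -4.25 ± 0.38 (adjusted p = 2.31e-07) in N-RAS-/- livers and by -4.27 ± 0.38 (adjusted p = 6.77e-07) in N-RAS+/+ livers, and Nsdhl by -3.50 ± 0.26 (adjusted p = 8.96e-08) in N-RAS-/- livers and -3.15 ± 0.26 (adjusted p = 2.38e-07) in N-RAS+/+ livers. With the low-Y arrays left out, 15 genes were called in N-RAS+/+ livers, but the sham group is then N02 alone and is assumed to vary like the other groups. With CCl4 arrays set against BDL arrays directly, with no control groups, 23 were called in N-RAS-/- livers and 20 in N-RAS+/+ livers. The experiment and the kind of injury cannot be told apart in the last of these. In the comparisons of responses each injury was also in its own experiment, with its own controls. All 3 N-RAS-/- sham arrays were low-Y, so the responses of N-RAS-/- livers could not be compared without the low-Y arrays.

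**Figure D4:**
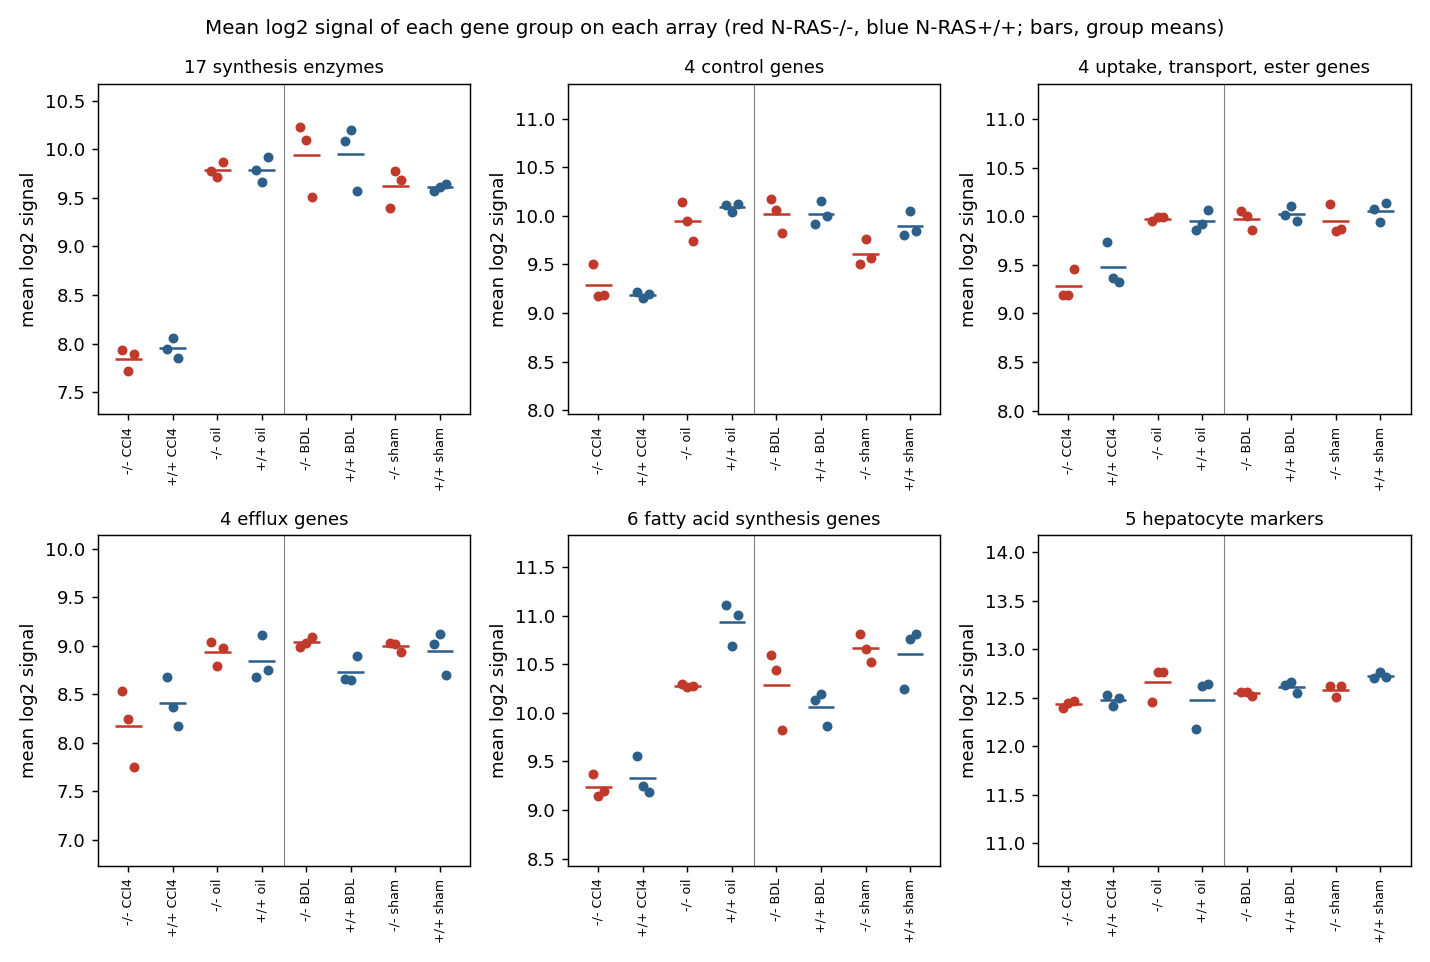
Mean log2 signal per array of the gene groups by role (synthesis enzymes, control, uptake and esterification, efflux), with 1 point per array in each of the 8 groups, N-RAS-/- in red and N-RAS+/+ in blue. The CCl4 groups stand apart for the synthesis enzymes (7.72 to 8.06), and the genotypes overlap there.

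Between genotypes, genes of the list differed in both directions after CCl4. In CCl4 livers N-RAS-/- over N-RAS+/+ was higher for 3 of the 29 genes and lower for 5, where 8.72% of all genes were called higher and 5.56% lower. The median was -0.06, against -0.04 over all genes. At an unadjusted p under 0.05, 4 were higher and 6 lower. Among the 8 genes called, the arrays of the genotypes overlapped for Insig1. The calls rest on the same arrays, so the lack of overlap for the others is no separate support.

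**Figure D5:**
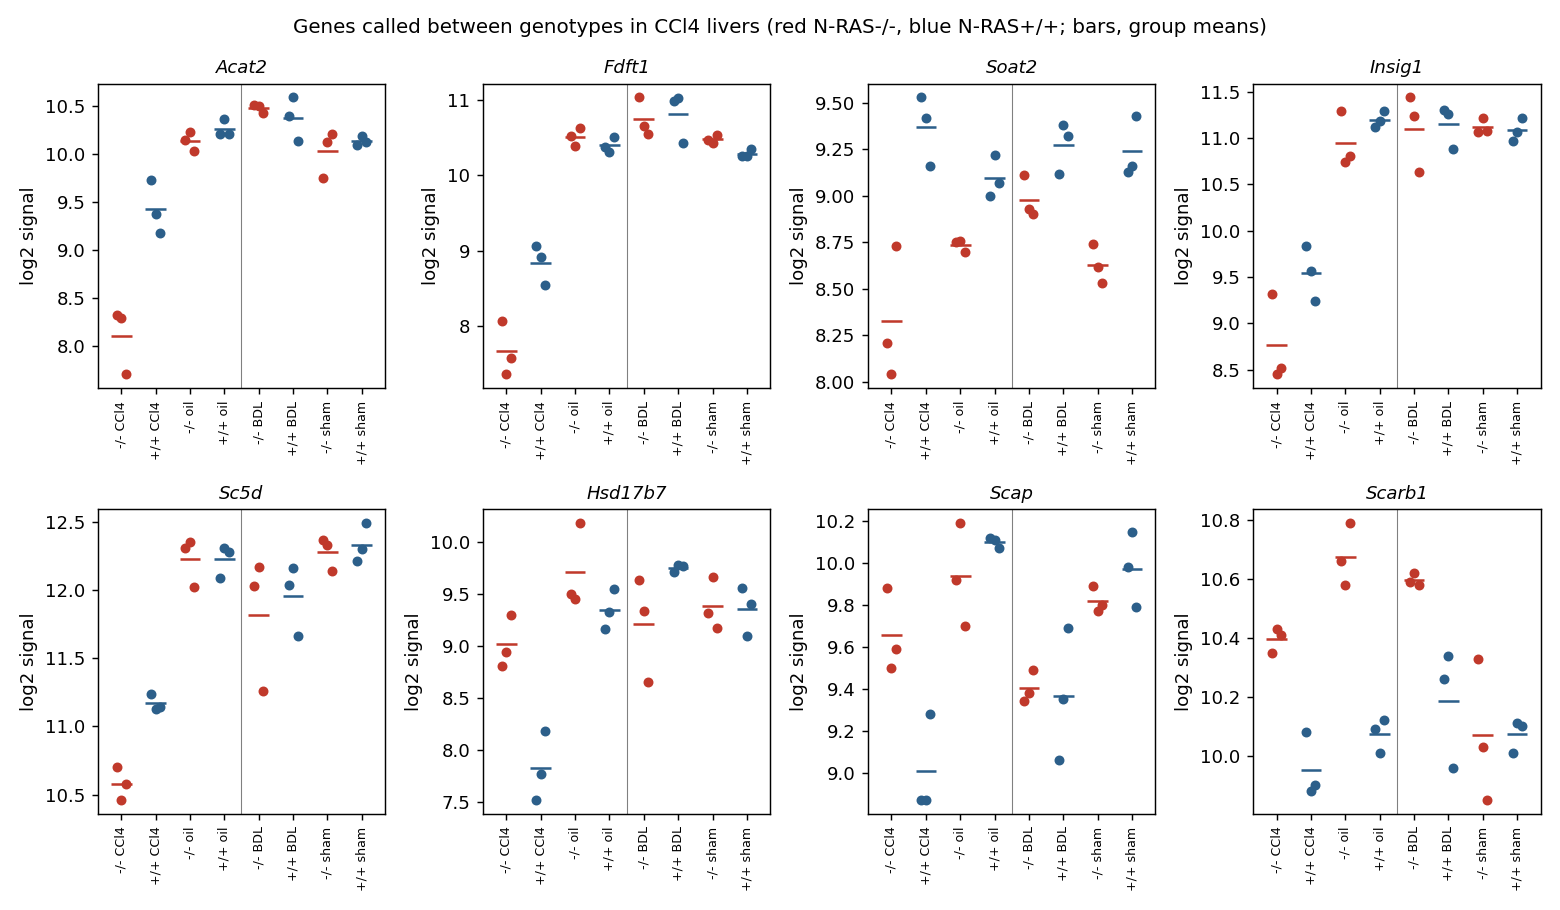
Log2 signal on every array of the 8 genes called between genotypes in CCl4 livers (red, N-RAS-/-; blue, N-RAS+/+; bars, means of 3 arrays). Soat2 is lower on N-RAS-/- than on N-RAS+/+ arrays within each of the 4 conditions, and Acat2 and Fdft1 are parted in CCl4 livers but not in oil livers.

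Acat2, whose product supplies acetoacetyl-CoA at the head of the pathway, showed the largest genotype difference. It had 8.32, 8.29 and 7.70 on N-RAS-/- CCl4 arrays and 9.73, 9.37 and 9.17 on N-RAS+/+ CCl4 arrays, a difference of -1.32 ± 0.19 (2.5-fold lower, adjusted p = 0.000393, limma). The oil arrays lay together, at 10.15, 10.23 and 10.03 for N-RAS-/- and 10.21, 10.37 and 10.21 for N-RAS+/+. Fdft1, squalene synthase, which commits farnesyl diphosphate to sterols, had 8.06, 7.36 and 7.58 on N-RAS-/- CCl4 arrays and 9.06, 8.92 and 8.54 on N-RAS+/+ CCl4 arrays, a difference of -1.17 ± 0.19 (2.25-fold lower, adjusted p = 0.000929, limma). On oil arrays it had 10.52, 10.38 and 10.63 in N-RAS-/- livers and 10.37, 10.31 and 10.51 in N-RAS+/+ livers, which overlap. For both genes the difference between genotypes itself differed between CCl4 and oil livers. The interaction was -1.28 ± 0.26 for Fdft1 (adjusted p = 0.0205) and -1.19 ± 0.26 for Acat2 (adjusted p = 0.0283) by limma. These were the 2 genes of the 29 called lower in that test, with 0 higher, where 1.04% of all genes were called lower and 1.32% higher. The call was kept in 9 of 12 fits without 1 array for Fdft1 (adjusted p up to 0.0548) and in 5 of 12 for Acat2 (up to 0.0663).

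Hsd17b7, the reductase that completes removal of ring methyl groups, went the other way. It had 8.81, 8.94 and 9.30 on N-RAS-/- CCl4 arrays and 7.52, 7.77 and 8.18 on N-RAS+/+ CCl4 arrays, a difference of 1.19 ± 0.22 (2.29-fold higher, adjusted p = 0.00248, limma). Its oil arrays had 9.50, 9.45 and 10.18 in N-RAS-/- livers and 9.16, 9.33 and 9.55 in N-RAS+/+ livers, which overlap, and the interaction of 0.83 ± 0.31 was not called (adjusted p = 0.179, limma). Scap, the escort protein of the Srebf2 product, had 9.88, 9.50 and 9.59 on N-RAS-/- CCl4 arrays and 8.87, 8.87 and 9.28 on N-RAS+/+ CCl4 arrays. The difference was 0.65 ± 0.17 (adjusted p = 0.0185, limma), and it was lost without N24, N25 or N30 (adjusted p up to 0.0822). Its interaction was 0.81 ± 0.24 (adjusted p = 0.0873, limma). On oil arrays Scap had 9.92, 10.19 and 9.70 in N-RAS-/- livers and 10.12, 10.11 and 10.07 in N-RAS+/+ livers.

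Sc5d, sterol desaturase, was lower, at 10.70, 10.46 and 10.58 on N-RAS-/- CCl4 arrays and 11.24, 11.13 and 11.14 on N-RAS+/+ CCl4 arrays. The difference of -0.59 ± 0.14 had an adjusted p of 0.0122 (limma), and of 0.051 without N31. Insig1 had 9.32, 8.45 and 8.52 on N-RAS-/- CCl4 arrays and 9.84, 9.56 and 9.24 on N-RAS+/+ CCl4 arrays, where the highest N-RAS-/- array exceeds the lowest N-RAS+/+ array. Its difference of -0.78 ± 0.23 (adjusted p = 0.0331, limma) was lost without N24, N25, N31 or N32, with adjusted p up to 0.123.

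Soat2, which esterifies cholesterol in hepatocytes, had lower signal on N-RAS-/- than on N-RAS+/+ arrays under every condition, a difference called in CCl4 livers. It had 8.21, 8.04 and 8.73 on N-RAS-/- CCl4 arrays and 9.53, 9.42 and 9.16 on N-RAS+/+ CCl4 arrays. It had 8.75, 8.76 and 8.70 on N-RAS-/- oil arrays and 9.0, 9.22 and 9.07 on N-RAS+/+ oil arrays. It had 9.11, 8.93 and 8.90 on N-RAS-/- BDL arrays and 9.12, 9.38 and 9.32 on N-RAS+/+ BDL arrays. The sham arrays had 8.74, 8.62 and 8.53 in N-RAS-/- livers and 9.13, 9.16 and 9.43 in N-RAS+/+ livers. Within each condition all 3 N-RAS-/- arrays were below all 3 N-RAS+/+ arrays, by a margin of 0.01 in BDL livers. By limma the difference was -1.04 ± 0.17 in CCl4 livers (adjusted p = 0.00139), -0.36 ± 0.17 in oil livers (adjusted p = 0.42), -0.29 ± 0.14 in BDL livers (adjusted p = 0.42). The sham difference was -0.60 ± 0.14 (adjusted p = 0.0965, limma).

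Scarb1, the HDL receptor, was called higher in N-RAS-/- livers after CCl4 and after oil. It had 10.35, 10.43 and 10.41 on N-RAS-/- CCl4 arrays and 10.08, 9.88 and 9.90 on N-RAS+/+ CCl4 arrays, a difference of 0.45 ± 0.13 (adjusted p = 0.0324, limma). It had 10.66, 10.58 and 10.79 on N-RAS-/- oil arrays and 10.09, 10.01 and 10.12 on N-RAS+/+ oil arrays, a difference of 0.60 ± 0.13 (adjusted p = 0.0465, limma). In BDL livers it had 10.59, 10.62 and 10.58 in N-RAS-/- livers and 10.26, 10.34 and 9.96 in N-RAS+/+ livers, a difference of 0.41 ± 0.15 that was not called (adjusted p = 0.268, limma). In sham livers it had 10.33, 10.03 and 9.85 in N-RAS-/- livers and 10.01, 10.11 and 10.10 in N-RAS+/+ livers, which overlap. The oil difference was 0.65 without the low-Y array N28, with an adjusted p of 0.0699, and the oil call was lost in each of the 6 fits without 1 array. The CCl4 call was lost without N25, N26, N30, N31 or N32, with adjusted p up to 0.107.

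In oil livers Scarb1 was the 1 gene of the 29 called higher and 0 were lower, where 0.534% of all genes were called higher and 0.312% lower. Before adjustment, 1 was higher and 3 lower at p under 0.05. In BDL livers 0 of the 29 genes were called between genotypes by limma, where 0.525% of all genes were called higher and 0.18% lower. Before adjustment, 5 passed p under 0.05 upwards and 2 downwards. Abcg1 came nearest, with 7.06, 7.28 and 7.39 on N-RAS-/- BDL arrays and 6.43, 6.48 and 6.60 on N-RAS+/+ BDL arrays, a difference of 0.74 ± 0.16 (adjusted p = 0.0558, limma). In sham livers 0 were called by limma, where 0.246% of all genes were called higher and 0.18% lower. Before adjustment, 0 passed p under 0.05 upwards and 2 downwards, Insig2 (-1.13) and Soat2 (-0.60). The genotype effect in BDL minus that in sham livers was called for 0 of the 29 genes by limma, where 0% of all genes were called in either direction. Before adjustment, 2 passed p under 0.05 upwards and 1 downwards.

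Averaged over the 4 conditions in 1 fit of 24 arrays, a comparison chosen after the data had been seen, N-RAS-/- over N-RAS+/+ was higher for 1 of the 29 genes and lower for 2, where 5.48% of all genes were called higher and 3.45% lower. Scarb1 was higher by 0.37 ± 0.06 (adjusted p = 0.000697), and Soat2 was lower by -0.57 ± 0.08 (adjusted p = 3.04e-05) and Acat2 by -0.36 ± 0.08 (adjusted p = 0.00832) by limma. The Acat2 average rests on CCl4 livers, where its difference was -1.32, against -0.13 in oil, 0.11 in BDL and -0.11 in sham livers. All 3 calls were kept in each of the 24 fits without 1 array, with adjusted p of at most 0.0188. Since the groups of 3 sham arrays differ in Y-linked signal between genotypes, the average holds that difference too.

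The genotype effect also differed between CCl4 and BDL livers, again in a comparison chosen after the data had been seen. It was higher in CCl4 livers for 1 gene and lower for 3, where 4.62% of all genes were called higher and 2.97% lower. Hsd17b7 differed by 1.74 ± 0.33 (adjusted p = 0.00235), Acat2 by -1.43 ± 0.24 (adjusted p = 0.00102), Fdft1 by -1.10 ± 0.26 (adjusted p = 0.0101) and Soat2 by -0.75 ± 0.22 (adjusted p = 0.0352) by limma. Hsd17b7 had 9.63, 9.34 and 8.65 on N-RAS-/- BDL arrays and 9.71, 9.78 and 9.77 on N-RAS+/+ BDL arrays. The N-RAS-/- arrays were lower there and higher in CCl4 livers, but the BDL difference itself was not called. The lowest of its values, 8.65, was that of N12, the array with the muscle signal. In BDL livers Acat2 had 10.51, 10.50 and 10.43 in N-RAS-/- livers and 10.40, 10.59 and 10.14 in N-RAS+/+ livers, and Fdft1 had 11.03, 10.65 and 10.54 in N-RAS-/- livers and 10.98, 11.02 and 10.43 in N-RAS+/+ livers, both overlapping. The first 3 of these calls were kept in each of the 12 fits without 1 array, and that of Soat2 in 4 of 12, with adjusted p up to 0.101.

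Some of the further cholesterol genes also differed in N-RAS-/- CCl4 livers against N-RAS+/+ CCl4 livers. Mylip, a ubiquitin ligase that acts on lipoprotein receptors, was higher by 0.69 ± 0.16 (adjusted p = 0.0114), and Tmem97, a membrane sterol-binding protein, by 0.53 ± 0.17 (adjusted p = 0.0464). Lrp1, a receptor for lipoprotein remnants, was lower by -0.66 ± 0.16 (adjusted p = 0.0111) and Gramd1b, which carries sterol from the plasma membrane, by -0.58 ± 0.16 (adjusted p = 0.0245). These are limma tests. Beside them, 0 of 5 hepatocyte markers were called between genotypes after CCl4 (0 at an unadjusted p under 0.05), while 2 of 5 stellate cell, 2 of 4 endothelial and 1 of 5 macrophage markers were higher, and 1 of 5 bile duct and 1 of 10 clock genes were lower. Their part in the genotype differences was not tested.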

How the data were processed

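Liver RNA of 24 mice was measured on an Affymetrix mouse array with 22206 probe sets. The authors deposited log2 signals that they had normalized between arrays (array medians 5.55 to 5.70). The normalization method and the genome build are not given in the sources used here; MAS5 is listed, without saying for which step, in the submitters' processing notes, and the labels give both a biotin label and a Cy3 labelling kit. The deposited workbooks also hold the authors' linear group-mean intensities, which equal the means of 2 raised to the log2 values, and fold ratios and p-values of their own comparisons, which were not used. Every column of array values was mapped (0 left out).

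Probe sets with several symbols (836) or none (3) were left out, 944 symbols were updated through RefSeq (GRCm38.p6), and for 144 genes with several probe sets the one with the highest mean was kept, which gave 21143 genes. No deposited p-value entered. Groups came from the labels. The main test was limma 3.58.1 in R 4.3.3 (1 coefficient per group over the 12 arrays of an experiment, contrasts, eBayes), with Benjamini-Hochberg adjustment over all genes and a threshold of 0.05. There were 10 planned comparisons and 4 added after the data had been seen. The scripts were checked on simulated data. The number of arrays, 3 per group, limits the precision. Promoter letters were searched in RefSeq windows with Python 3.11.15, and figures were drawn with matplotlib 3.10.9. The members and lists were chosen with earlier results of these data known. All members were named; values of every array were given for members called between genotypes or in an interaction and for up to 8 further members, with some others that were singled out after their values were seen, with the smallest adjusted p between treatments. Alternatives were other sets of arrays in the fit, quantile normalization, a floor of log2 5, a filter at the 40th percentile, trended and robust eBayes, the mean over probe sets, the methods' t-test with adjusted p, and leaving out the low-Y arrays, N12 or each array in turn. The mean over probe sets left the values of the members unchanged, since each had 1 probe set, so it could hardly change their calls. The genotype result of 1 further cholesterol gene in CCl4 livers is not reported here.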

Additional observations from a re-analysis of the deposited data

Results flagged for a closer look

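The genotype effect differed between treatments, by a test of the difference itself, for the following genes. Between CCl4 and oil livers it differed by -1.28 for Fdft1, with a genotype difference of -1.17 in CCl4 livers and 0.11 in oil livers, and by -1.19 for Acat2, with -1.32 in CCl4 livers and -0.13 in oil livers (limma). Between CCl4 and BDL livers, compared after the data had been seen, it differed by -1.43 for Acat2 (-1.32 in CCl4 and 0.11 in BDL livers), by -1.10 for Fdft1 (-1.17 in CCl4 and -0.07 in BDL livers), by -0.75 for Soat2 (-1.04 in CCl4 and -0.29 in BDL livers) and by 1.74 for Hsd17b7 (1.19 in CCl4 and -0.55 in BDL livers). The 2 sets of differences share the CCl4 arrays, so the values for Acat2 and Fdft1 are not separate evidence. Array N12, with its muscle signal, is among the N-RAS-/- BDL arrays; without it 6 genes were called in the CCl4 and BDL comparison, 1 higher and 5 lower, the 4 above among them. Without 1 array in turn, the call of Soat2 was kept in 4 of 12 fits, and in the CCl4 and oil comparison that of Fdft1 in 9 of 12 and that of Acat2 in 5 of 12.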

How the results depend on the processing

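Of 1952 results under the alternatives for single genes called in the main fit, 1759 kept their direction and still passed the threshold. Another 191 kept their direction but no longer passed. The sign changed in 2, Abca1 (-0.14) and Scarb1 (-0.08), for BDL over oil in place of sham in N-RAS-/- livers. Genes not called in the main fit were not counted here. The total pools all comparisons and includes the mean over probe sets, which left the members' values unchanged. It therefore does not give the stability of any single comparison. For CCl4 over oil, leaving out 1 array in turn gave 20 to 22 calls in N-RAS-/- livers and 20 in N-RAS+/+ livers. With the methods' t-test and adjusted p, 13 genes were called for CCl4 over oil in N-RAS+/+ livers, 2 for BDL over sham in N-RAS-/- livers, and 0 for BDL over sham in N-RAS+/+ livers and for genotype in CCl4 and in oil livers. Only the arrays of the compared groups in the fit gave 0 calls for genotype in oil livers, and for BDL over sham 5 in N-RAS-/- livers and 2 in N-RAS+/+ livers. A fit of all 24 arrays gave 1 call for genotype in BDL livers and 9 for BDL over sham in N-RAS+/+ livers. Trended and robust eBayes gave 1 and 8 for the same comparisons, and the percentile filter gave 1 for genotype in BDL livers. The floor at log2 5 gave 5 calls for BDL over sham in N-RAS-/- livers, 3 in N-RAS+/+ livers, and 0 for the genotype effect in CCl4 minus oil livers. Quantile normalization gave 0 for genotype in oil livers. Leaving out the low-Y arrays gave 1 call for BDL over sham in N-RAS+/+ livers, where the sham group is then N02 alone and is assumed to vary like the other groups, and 0 for genotype in oil livers; it could not be run where N-RAS-/- sham arrays were needed. Oil in place of sham gave 3 calls in N-RAS-/- BDL livers. Without N12, 5 genes were called for genotype averaged over the 4 conditions. The causes were not tested.

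Leaving out 1 array in turn gave 5 to 7 calls for genotype in CCl4 livers (5 without N31), 0 for genotype in BDL and sham livers, 0 for genotype in oil livers without any 1 of its 6 arrays (N21, N22, N23, N27, N28 or N29), 2 to 9 for BDL over sham in N-RAS+/+ livers (2 without N01, 3 without N02, N04 or N05, 9 without N06) and 3 to 8 in N-RAS-/- livers (3 without N11, 4 without N08 or N10, 5 without N07 or N09, 8 without N12). It gave 0 to 2 for the genotype effect in CCl4 minus oil livers (0 without N22 or N25, 1 without N21, N23, N24, N27, N29 or N32), and 3 to 5 for genotype averaged over conditions (5 without N12 or N30). The response to CCl4 minus that to BDL gave 19 to 23 calls in N-RAS-/- livers and 18 to 19 in N-RAS+/+ livers, and the genotype effect in CCl4 minus BDL livers 3 to 6. No paired analysis was possible because the groups share no replicate numbers. The number of arrays, 3 per group, limits which differences could be detected.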
